A study of Homo sapiens with 6 samples.

Results

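The transcripts described here encode the respiratory chain and the ATP synthase of human mitochondria. Members were genes with a deposited read count in every library, 0 included, that were chosen by symbol. The symbol rule took mitochondrially encoded ND, CO, CYB and ATP genes and nuclear genes starting with NDUF, UQCR, COX4 to COX8 or ATP5. It also took CYC1, CYCS and SDHA to SDHD. That rule gave 110 genes of 19493, of which 13 lie in mitochondrial DNA and 97 in the nucleus. Pseudogenes (2) and a divergent noncoding transcript (1) that matched by symbol were left out. A total of 104 members, the 13 mitochondrial ones and 91 nuclear ones, reached 1 cRPKM (a read count corrected for gene length and library size) in at least 2 libraries and were tested. The 6 nuclear members under that level were COX4I2, COX6A2, COX7A1, COX7B2, COX8C and ATP5MGL.

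All libraries came from HaCaT, a spontaneously immortalised human keratinocyte line, that carried a CPD photolyase from a marsupial, Potorous tridactylus. In the first group, called active photolyase here, cells received 15 J/m2 of 254 nm UVC and were exposed to white light for 2 h, which switches the enzyme on. In the UVC group, cells received the same dose while the photolyase stayed inactive. Control cells were not irradiated and their photolyase was inactive. Irradiated cells were harvested 6 h after UVC, and each group had 2 libraries. White light was given only with active photolyase, so the light and the repair of CPDs cannot be told apart. Whether replicates were separate cultures is not stated in the labels, and p-values therefore cover only the scatter of these libraries, possibly a technical one.

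Complexes I to IV pass electrons from NADH and succinate to oxygen and, apart from complex II, pump protons, and complex V uses the proton gradient to make ATP. Mitochondrial DNA supplies only the most hydrophobic subunits of complexes I, III, IV and V, transcribed as long polycistronic RNAs by a dedicated polymerase, POLRMT. All other subunits, and the whole of complex II, come from nuclear genes transcribed by RNA polymerase II, on which UVC lesions such as cyclobutane pyrimidine dimers (CPDs) are blocks. A photolyase splits CPDs when light drives it.

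Total gene counts ranged from 57669389 to 69960028 across the libraries of irradiated cells and from 69585649 to 70005705 in control. Most tested genes changed: 85.6% of 11926 were called between UVC and control, 79.1% between active photolyase and UVC, and 65.8% between active photolyase and control (edgeR quasi-likelihood test, Benjamini-Hochberg adjusted p under 0.05). Levels below are cRPKM divided by the library's TMM factor, called scaled cRPKM, and fold changes are on the log2 scale with their standard error. Where the libraries of 2 groups are said not to overlap, the share of all tested genes that do likewise is not given here. Since most tested genes were called, such a separation does not set a member apart. All 10 keratinocyte markers were tested, and their summed level was 14370 to 14480 scaled cRPKM with active photolyase, 11740 to 12050 after UVC and 13790 to 14600 in control. Of the 10, 7 fell and 2 rose between UVC and control (median -0.46), where 43.1% of all tested genes were called lower and 42.5% higher. Of the markers of other cells, 1 of 7 for melanocytes, 2 of 9 for fibroblasts and 4 of 11 for immune cells passed the filter. The summed immune markers stood at 188 to 198.5 scaled cRPKM with active photolyase, 181.1 to 182.6 after UVC and 132.5 to 145.6 in control. The part of these marker shifts in the results was not tested.

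The direction of a change depends on the scaling here. With library totals in place of TMM factors, the median change of all genes moved to 0.42 between UVC and control, to -0.34 between active photolyase and UVC, and to 0.12 between active photolyase and control, against 0.00, -0.04 and 0.01 with TMM. Between UVC and control the calls were then 7091 higher and 3546 lower, against 5074 and 5140 with TMM. Between active photolyase and UVC they were 3324 higher and 6939 lower, against 4676 and 4755, and between active photolyase and control 5228 and 2848, against 3933 and 3919. All member and list counts given below with library totals stand against these, out of 11926 genes. The nuclear members' median lay 0.43, -0.18 and 0.21 from that of all genes, in the order of those comparisons. These distances were the same with either scaling. A change of scaling moves all genes of a comparison nearly alike, so that sameness was fixed in advance and is no support. Ratios of genes within a library do not depend on the scaling at all, and are given where they can be.

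In bulk RNA, fewer mitochondria or cells and less RNA in each cannot be told apart. The 13 mitochondrially encoded genes took 4.09 and 3.21% of counts with active photolyase, 5.13 and 5.28% after UVC, and 3.32 and 3.92% in control. The 97 nuclear members took 0.771 and 0.767% with active photolyase, 1.07 and 1.06% after UVC, and 0.651 and 0.603% in control. Both shares were highest in the UVC libraries, and only the nuclear share separated the 3 groups. The mitochondrial shares of the active-photolyase libraries lay on either side of both control libraries.

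**Figure D1:**
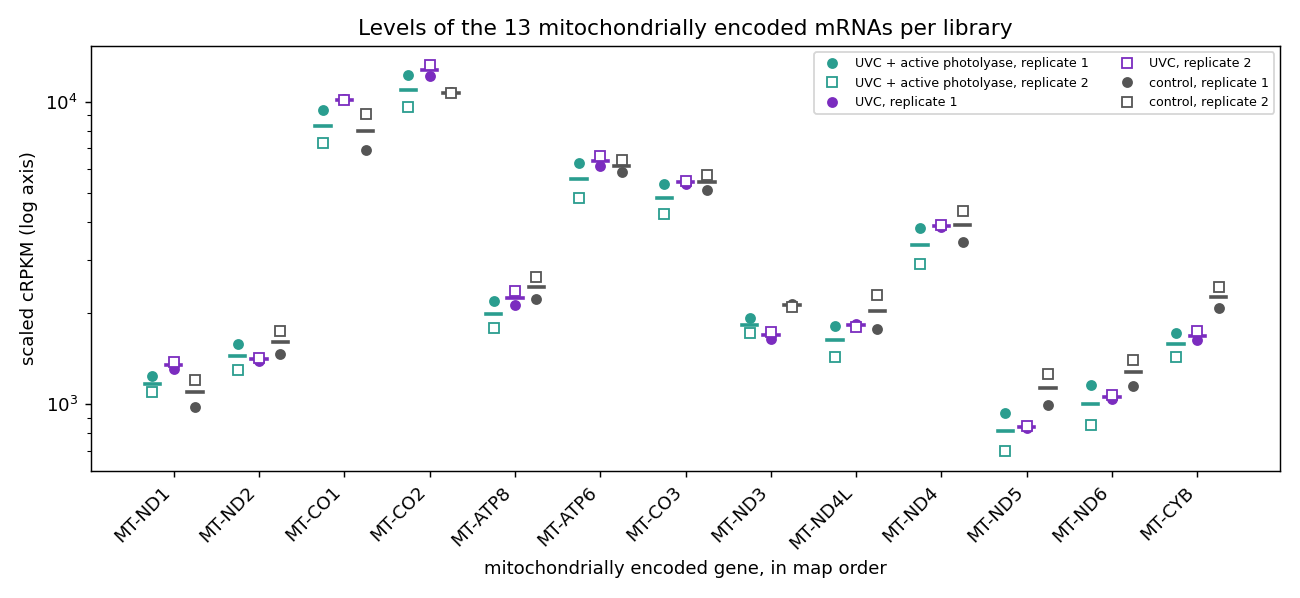
Scaled cRPKM (log axis) of the 13 mitochondrially encoded mRNAs in map order. Filled circles are replicate 1, open squares replicate 2 and bars group means, with active photolyase at left, UVC in the middle and control at right of each gene. MT-CO1, MT-CO2 and MT-ND1 are the genes whose UVC libraries both stand above control, and MT-ND3, MT-ND5 and MT-CYB lie below both control libraries in all 4 irradiated libraries.

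Among mitochondrially encoded mRNAs, calls between UVC and control went in both directions with TMM scaling: 3 of 13 rose, 4 fell and 6 were not called, with a median of -0.12. The split rests on the scaling, since 9 rose and 0 fell with library totals, 7 and 0 with limma on cRPKM as deposited and 5 and 0 with limma after median-centring. With TMM, 42.5% of all tested genes were called higher and 43.1% lower, so the mitochondrial shares of 23.1 and 30.8% lay below that background. The background moved with the scaling too. Of 11926 genes, 7091 were called higher and 3546 lower with library totals. Limma at pseudocount 1 gave 7084 and 3519, and 6416 and 4024 after median-centring. The share of rises among the 13 was above its background with library totals and below it with both limma fits.

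MT-CO1, the catalytic subunit of complex IV, stood at 10206 and 10093 scaled cRPKM after UVC, against 6903 and 9060 in control. MT-CO2, which takes electrons from cytochrome c, stood at 12189 and 13183 after UVC, against 10737 and 10654 in control. MT-ND1, a membrane subunit of complex I, stood at 1308 and 1376 after UVC, against 978 and 1202 in control. The UVC libraries were higher than both control libraries for each of these genes, with log2 fold changes of 0.35 ± 0.12 for MT-CO1 (edgeR adjusted p = 0.0146), 0.25 ± 0.09 for MT-CO2 (0.021) and 0.30 ± 0.09 for MT-ND1 (0.00499). Without UVC replicate 2 none of the 3 was called (adjusted p = 0.0762, 0.19 and 0.061), and MT-CO1 was also not called without UVC replicate 1 (0.088) or control replicate 1 (0.124). Without control replicate 1 there were 7 lower calls among the 13.

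MT-CYB, the cytochrome b of complex III, stood at 1626 and 1735 scaled cRPKM after UVC, against 2080 and 2431 in control. MT-ND5, a proton-pumping subunit of complex I, stood at 833 and 847 after UVC, against 993 and 1255 in control. MT-ND3 stood at 1643 and 1733 after UVC, against 2140 and 2098 in control. The fold changes were -0.42 ± 0.09 for MT-CYB (edgeR adjusted p = 0.000497), -0.42 ± 0.12 for MT-ND5 (0.00439) and -0.33 ± 0.06 for MT-ND3 (0.000188). None of these calls held with library totals, where MT-CYB was at -0.01 (adjusted p = 0.922), MT-ND5 at 0.00 (0.97) and MT-ND3 at 0.09. MT-ND6, the only light-strand gene of the 13, was called lower at -0.27 ± 0.11 (0.0366), but not without control replicate 2 (-0.13, adjusted p = 0.2805) or either UVC replicate (0.17 and 0.112), and it was at 0.14 with library totals.

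The other 6 mitochondrial genes were not called between UVC and control. MT-ND2 was at -0.19 ± 0.09, MT-ATP8 at -0.12 ± 0.09, MT-ND4L at -0.16 ± 0.11, MT-ATP6 at 0.05 ± 0.10, MT-CO3 at 0.00 ± 0.09 and MT-ND4 at -0.01 ± 0.12. MT-ATP8 and MT-ATP6 share 46 bases and MT-ND4L and MT-ND4 share 7, on RNAs that carry both frames, so reads there can belong to either gene.

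Set against UVC, active photolyase had lower MT-CO1: it fell by 0.29 ± 0.12 (edgeR adjusted p = 0.0395), MT-CO2 by 0.22 ± 0.09 (0.0424) and MT-ND1 by 0.20 ± 0.09 (0.0434), 0 mitochondrial genes rose (0 also at an unadjusted p under 0.05), and the median of the 13 was -0.17. The 3 falls lay below the background of 39.9% called lower, and the 0 rises below that of 39.2% called higher. With library totals 13 of 13 fell, where 6939 of all 11926 tested genes were called lower and 3324 higher and their median was -0.34. MT-CO1 stood at 9365 and 7269 scaled cRPKM with active photolyase, against 10206 and 10093 after UVC. MT-ND1 stood at 1239 and 1093 with active photolyase, against 1308 and 1376 after UVC. The 2 active-photolyase libraries were far apart, and for MT-CO2, at 12258 and 9597 against 12189 and 13183, they overlapped with UVC. All 3 calls were lost without UVC replicate 1, UVC replicate 2 or active-photolyase replicate 2, while 11 genes were called lower without active-photolyase replicate 1 and 8 without either control library, so that 0 to 11 of 13 fell depending on the library left out.

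Against control, active photolyase gave 0 mitochondrial rises and 6 falls of 13, with a median of -0.21, where 33.0% of all tested genes were called higher and 32.9% lower. With library totals there were 1 rise and 2 falls, where 5228 of all 11926 tested genes were called higher and 2848 lower. At an unadjusted p under 0.05 and by DESeq2 there were likewise 0 mitochondrial rises. MT-CYB stood at 1721 and 1423 scaled cRPKM with active photolyase, against 2080 and 2431 in control (-0.52 ± 0.09, edgeR adjusted p = 0.000184). MT-ND5 stood at 933 and 697 with active photolyase, against 993 and 1255 in control (-0.46 ± 0.12, 0.00358). The groups did not overlap for either gene. MT-ND6 (-0.35), MT-ND4L (-0.32), MT-ATP8 (-0.29) and MT-ND3 (-0.22) also fell, and without active-photolyase replicate 2 only MT-CYB of the 6 was called. Without control replicate 2 there were 3 lower and 2 higher calls, without active-photolyase replicate 2 there was 1 of each, and without active-photolyase replicate 1 there were 10 lower calls.

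The levels of the mitochondrial genes relative to each other do not depend on the scaling. In map order along the heavy-strand transcript, MT-ND1, MT-ND2, MT-CO1 and MT-CO2 lie on the promoter side and MT-ND5 and MT-CYB at the far end. The ratio of MT-ND1 to MT-CYB cRPKM was 0.72 and 0.768 with active photolyase, 0.805 and 0.794 after UVC, and 0.47 and 0.494 in control. MT-CO1 over MT-ND5 was 10.04 and 10.43 with active photolyase, 12.25 and 11.92 after UVC, and 6.95 and 7.22 in control. For both ratios every irradiated library was above both control libraries, and the 2 UVC libraries were above the active-photolyase ones.

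**Figure D2:**
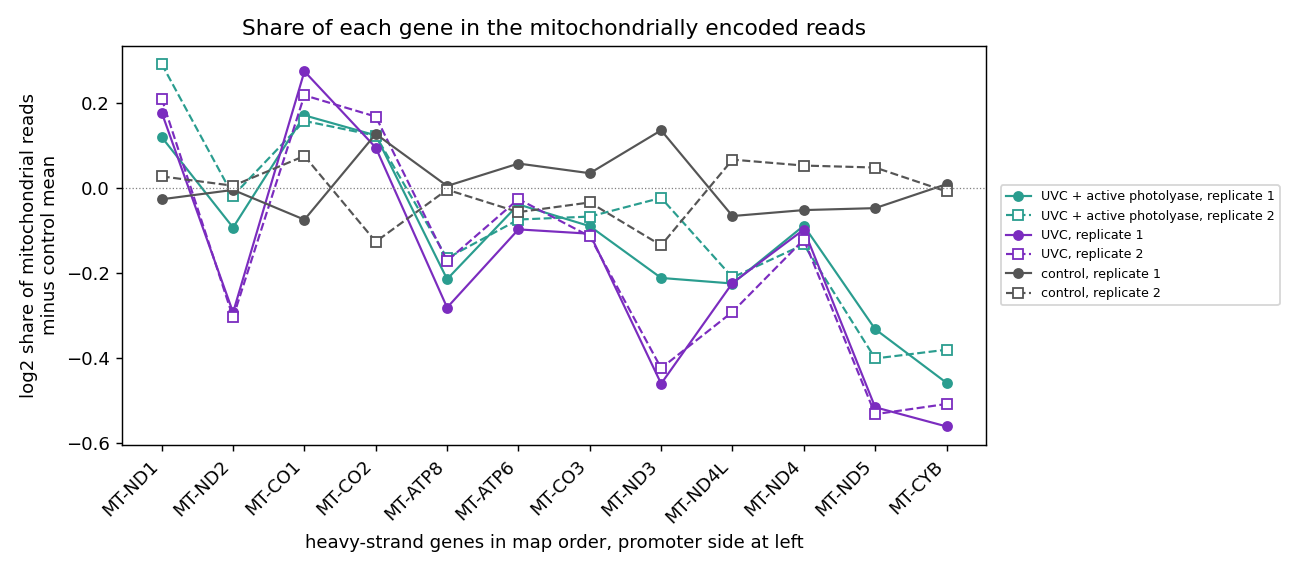
Log2 share of each heavy-strand gene in the reads of the 13 mitochondrially encoded genes, minus the control mean, with genes in map order from the promoter side at left. Each line is 1 library. The 4 irradiated libraries lie above 0 at MT-ND1 and MT-CO1 and at -0.33 or lower at MT-ND5 and MT-CYB, and the control libraries stay within 0.14 of 0.

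The same tilt was present when the ends were summed: the first 3 heavy-strand genes over the last 3 gave 1.88 and 1.92 with active photolyase, 2.04 and 1.99 after UVC, and 1.44 and 1.49 in control. The log2 difference was 0.46 between UVC and control, -0.08 between active photolyase and UVC, and 0.38 between active photolyase and control. With 2 libraries against 2, an exact two-sided permutation test reaches p = 0.333 at best, and the ratio of the ends gave that value in all 3 comparisons. Over the 12 heavy-strand genes, Spearman's rho between map order and the fold change was -0.69 for UVC against control and -0.85 for active photolyase against control. These are descriptions across neighbouring genes of 1 transcript and share the control libraries.

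By library, rho between map order and the change of share from the control mean was -0.706 and -0.86 with active photolyase and -0.643 and -0.685 after UVC. Between the 2 control libraries it was 0.007, between the UVC ones -0.161 and between the active-photolyase ones -0.266. MT-ND2 stood off the order, with a share 0.29 and 0.31 log2 units below the control mean after UVC although it is the second gene. When the summed counts of the 13 genes served as library size, an alternative chosen after seeing the data, MT-CYB (-0.53, edgeR adjusted p = 0.0239) and MT-ND5 (-0.53, 0.0281) were called lower between UVC and control. No mitochondrial gene was called in the other 2 comparisons under that scaling, where MT-CYB was at 0.12 between active photolyase and UVC (adjusted p = 0.712) and at -0.42 between active photolyase and control (0.156).

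Nuclear respiratory transcripts mostly rose after UVC relative to the typical gene. Between UVC and control 75 of 91 tested were called higher and 3 lower, with a median of 0.44, against 42.5% higher, 43.1% lower and a median of 0.00 over all tested genes. By complex, 33 of 44 rose and 3 fell for complex I with its assembly factors, 3 of 4 rose for complex II, 8 of 9 for complex III, 13 of 14 for complex IV and 17 of 19 for complex V. Median changes were 0.42, 0.19, 0.52, 0.51 and 0.44 in that order. Leaving out any library gave 70 to 78 higher calls and 3 or 4 lower ones. With the summed mitochondrial counts as library size only 17 were called higher and 1 lower. The median of the members was then still 0.43 above that of all genes, a distance that a change of scaling can hardly move.

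**Figure D3:**
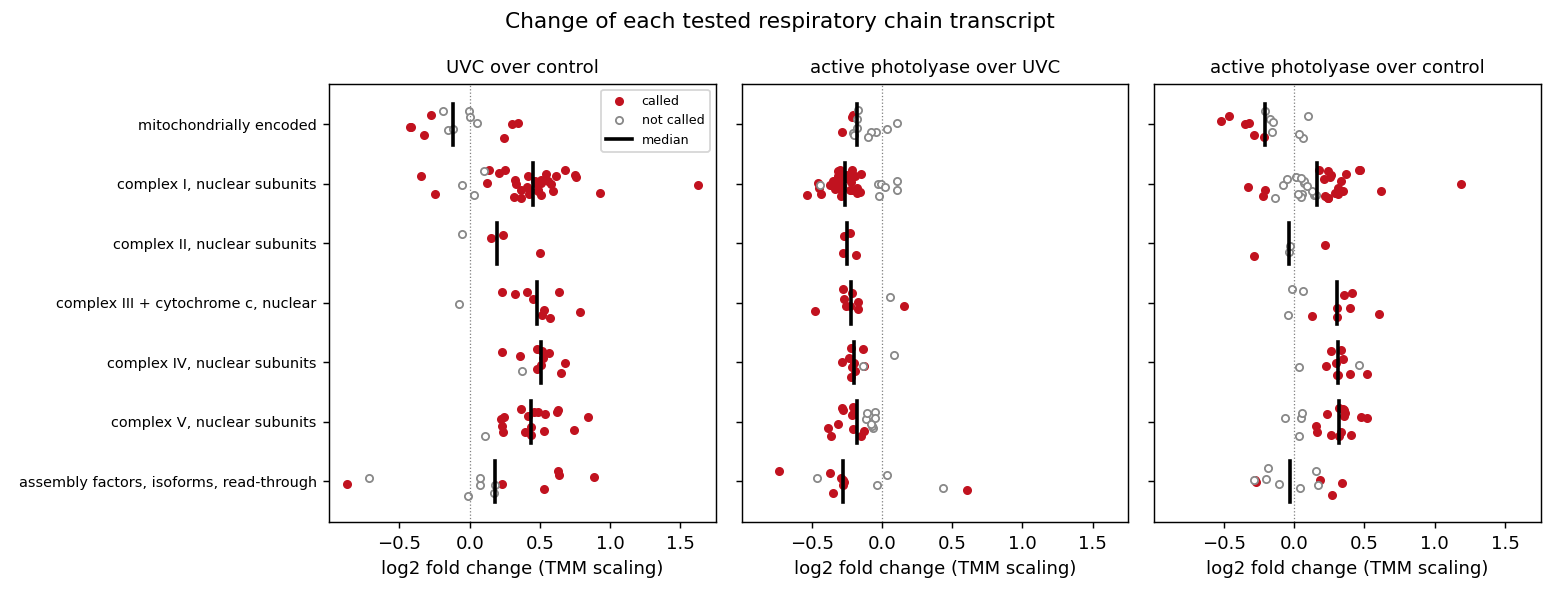
Log2 fold change (TMM scaling) of each tested member in the 3 comparisons, grouped by complex. Filled red points passed the edgeR test, open points did not, and black bars are medians. Nuclear subunits of complexes III, IV and V lie almost entirely right of 0 for UVC over control and active photolyase over control, and mitochondrially encoded genes lie on both sides of 0 for UVC over control.

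Accessory subunits had a higher median change than nuclear core subunits. Of 47 accessory subunits, all in complexes I, III and IV, 43 rose after UVC and 1 fell (median 0.49). Of 13 core subunits in complexes I, II and III, with all of complex II counted as core, 9 rose and 1 fell (median 0.31). Over all tested genes 42.5% were called higher and 43.1% lower. In complex I, where the core carries the flavin and the iron-sulfur clusters, 26 of 29 accessory subunits rose (median 0.48) and 5 of 7 nuclear core subunits did (median 0.32). The summed cRPKM of accessory over core subunits of complex I was 5.19 and 5.03 with active photolyase, 4.69 and 4.79 after UVC, and 4.22 and 4.13 in control. That ratio separated the 3 groups and was highest with active photolyase.

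Named accessory subunits showed the size of the rise. NDUFA2, an accessory subunit of complex I, stood at 39.0 and 38.9 scaled cRPKM after UVC, against 21.6 and 19.3 in control (0.93 ± 0.07, edgeR adjusted p = 1.83e-08). UQCR10, a small subunit of complex III, stood at 82.4 and 81.4 after UVC, against 50.8 and 44.3 in control (0.78 ± 0.06, 4.19e-08). Neither gene had overlapping groups. NDUFA11 had the largest fold change of the members (1.63 ± 0.25), but on only 18 to 76 reads per library. It is outside the rule for named genes, having been picked out after its value was seen. Its control libraries were under the filter (0.70 and 0.98 cRPKM), so it was tested only through the irradiated groups, where it was high.

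The complex I core itself was uneven. NDUFV2, which holds an iron-sulfur cluster next to the flavin subunit NDUFV1, stood at 38.5 and 39.9 scaled cRPKM after UVC, against 51.2 and 48.4 in control (-0.35 ± 0.06, edgeR adjusted p = 6.48e-05). NDUFV1 stood at 107 and 106 after UVC, against 85.9 and 83.5 in control (0.33 ± 0.05, 2.94e-05). NDUFV2 was thus below both control libraries and NDUFV1 above both, although with library totals NDUFV2 was at 0.07. Within libraries, the ratio of NDUFV2 to NDUFV1 was 0.485 and 0.437 with active photolyase, 0.359 and 0.378 after UVC, and 0.596 and 0.58 in control. NDUFS1, the largest subunit of the peripheral arm, was not called (-0.05 ± 0.05, 0.36 with library totals).

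In complex II, the only complex with no mitochondrially encoded part, SDHD rose most. SDHD, a membrane anchor, stood at 127 and 127 scaled cRPKM after UVC, against 92.8 and 87.5 in control (0.50 ± 0.05, edgeR adjusted p = 8.35e-07). SDHA, the flavoprotein that oxidises succinate, stood at 66.0 and 68.0 after UVC, against 71.7 and 67.8 in control (-0.06 ± 0.05, 0.311). SDHA libraries overlapped between the groups and SDHD libraries did not, although both proteins enter the same complex. SDHC rose by 0.24 ± 0.05 and SDHB by 0.15 ± 0.05, the call of SDHB being lost without control replicate 2 (0.11, adjusted p = 0.0914) or UVC replicate 1 (0.14, adjusted p = 0.0644).

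Among the carriers and complex III, CYCS, the soluble cytochrome c, stood at 189 and 184 scaled cRPKM after UVC, against 137 and 135 in control (0.45 ± 0.05, edgeR adjusted p = 2.19e-06). CYC1, the cytochrome c1 that hands electrons to it, rose by 0.32 ± 0.05. UQCRC1 (0.41 ± 0.05) and UQCRC2 (0.23 ± 0.05), the large matrix-facing subunits, also rose. UQCRFS1, the Rieske iron-sulfur protein, was the member of complex III not called (-0.07 ± 0.06, and 0.34 with library totals).

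In complex IV, COX4I1 (0.36 ± 0.06), COX5A (0.23 ± 0.05) and COX5B (0.48 ± 0.06) rose, all of them nuclear subunits that surround the mitochondrially encoded core. For COX5B the UVC libraries stood at 205 and 194 scaled cRPKM, against 150 and 136 in control. The isoform COX6B2, known mainly from testis, rose at a low level, with 7.63 and 7.41 after UVC, against 3.70 and 4.44 in control (0.89 ± 0.12, edgeR adjusted p = 7.43e-06). Its common counterpart COX6B1 rose by 0.52 ± 0.06 and COX7A2 by 0.48 ± 0.05. NDUFA4, named for complex I but a subunit of complex IV, rose by 0.51 ± 0.06. Its low-level relative NDUFA4L2 reached 0.974 and 0.998 after UVC, against 0.699 and 0.577 in control (0.63 ± 0.22, 0.0146), a call lost without control replicate 2 or either UVC replicate. In cRPKM as deposited, NDUFA4L2 stood at 1.15 and 1.18 after UVC and under 1 in all other libraries. It thus passed the filter only through the group where it was high, so its call is no support for a rise. The counts of rises after UVC in complex IV and over all nuclear members include it. COX4I2 and COX7A1 stayed under 0.1 scaled cRPKM in every library, and COX6A2 and COX7B2 had no read. COX6A1 was not called (0.37 ± 0.23), and its value is uncertain, since its effective length is only 23 bases and rests on 37 to 70 reads.

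In complex V, subunits of the c-ring, the rotor that protons turn, had a higher median change than the catalytic F1 head. ATP5MC1 of the c-ring stood at 117 and 114 scaled cRPKM after UVC, against 67.1 and 61.7 in control (0.84 ± 0.06, edgeR adjusted p = 5.98e-09), the largest rise among called members of complex V. ATP5F1B, the catalytic beta subunit, stood at 545 and 530 after UVC, against 518 and 479 in control (0.11 ± 0.06, 0.0775). All 3 c-ring genes rose (median 0.74) and 4 of 5 F1 genes did (median 0.24), among them ATP5F1A (0.22 ± 0.05) and ATP5F1C (0.24 ± 0.05). Within libraries, c-ring over F1 transcripts gave 0.215 and 0.219 with active photolyase, 0.249 and 0.25 after UVC, and 0.169 and 0.165 in control, with no overlap between groups. All 4 peripheral stalk and all 5 other membrane subunits rose after UVC, where 42.5% of all tested genes were called higher. ATP5IF1, which inhibits ATP hydrolysis by the enzyme, stood at 192 and 185 after UVC, against 129 and 115 in control (0.63 ± 0.06, 1.81e-07). The read-through locus ATP5MF-PTCD1 was not called on at most 12 reads per library.

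Assembly factors behaved less uniformly. Of 9 tested, 3 rose after UVC and 1 fell, both shares lying below the background of 42.5% higher and 43.1% lower, and NDUFAF8 rose by 0.63 ± 0.09. NDUFAF4, which helps to assemble the quinone-binding module of complex I, stood at 3.68 and 3.88 scaled cRPKM after UVC, against 7.07 and 6.78 in control (-0.87 ± 0.07, edgeR adjusted p = 7.96e-08). With NDUFV2 and NDUFV3 (-0.25 ± 0.07), it made up the 3 nuclear members that fell. With library totals 1 nuclear member was still called lower.

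The nuclear members lay lower with active photolyase than after UVC. Of 91 tested, 68 fell and 2 rose, with a median of -0.22 against -0.04 over all genes and a background of 39.9% called lower and 39.2% higher. Falls numbered 35 of 44 in complex I, 4 of 4 in complex II, 8 of 9 in complex III, 10 of 14 in complex IV and 11 of 19 in complex V. Without any 1 library there were 54 to 70 lower calls. With the summed mitochondrial counts as library size 1 was called lower and 1 higher, with a median of 0.01 against 0.19 over all genes.

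UQCR10 stood at 59.0 and 58.5 scaled cRPKM with active photolyase, against 82.4 and 81.4 after UVC (-0.48 ± 0.06, edgeR adjusted p = 8.74e-06). COX6B2 stood at 5.05 and 3.99 with active photolyase, against 7.63 and 7.41 after UVC (-0.73 ± 0.11, 5.1e-05). Neither gene had overlapping groups here. In complexes V and II the largest falls were those of ATP5MC2 (-0.39 ± 0.06) and SDHD (-0.28 ± 0.05), and among assembly factors that of NDUFAF3 (-0.35 ± 0.07), taking genes of at least 5 cRPKM.

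Most other members fixed by name also fell with active photolyase: NDUFV1 by 0.30, NDUFS1 by 0.15, SDHA by 0.23, SDHB by 0.19, SDHC by 0.27, CYC1 by 0.26, UQCRC1 by 0.28, UQCRC2 by 0.27, COX5A by 0.19, ATP5F1A by 0.29, ATP5F1C by 0.21 and ATP5IF1 by 0.28. NDUFV2 (0.02), UQCRFS1 (0.06) and ATP5F1B (-0.07) were not called. COX4I1 fell by 0.13, a call lost without either UVC or either active-photolyase library (adjusted p = 0.0702 to 0.159). The calls of COX5B (-0.22) and COX6B1 (-0.21) were lost without UVC replicate 1 (adjusted p = 0.0682 and 0.0741). That of COX7A2 (-0.13) was lost without UVC replicate 1 (0.112), UVC replicate 2 (0.0875) or active-photolyase replicate 2 (0.0815).

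NDUFAF4 and CYCS were the members that rose with active photolyase. NDUFAF4 stood at 5.78 and 5.69 scaled cRPKM with active photolyase, against 3.68 and 3.88 after UVC (0.60 ± 0.07, edgeR adjusted p = 6.01e-06). CYCS stood at 213 and 202 with active photolyase, against 189 and 184 after UVC (0.16 ± 0.05, 0.0138). The rise of CYCS was -0.15 with library totals and was not called without UVC replicate 2 (0.14, adjusted p = 0.104) or active-photolyase replicate 1 (0.12, adjusted p = 0.121). The ratio of CYCS to CYC1 within a library does not depend on scaling, and was 2.06 and 1.97 with active photolyase, 1.51 and 1.51 after UVC, and 1.36 and 1.41 in control, with active photolyase highest.

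Between active photolyase and control 52 of 91 nuclear members rose and 6 fell, with a median of 0.22 against 0.01 over all genes and a background of 33.0% called higher and 32.9% lower. Accessory and core subunits differed here too: 33 of 47 accessory subunits rose and 0 fell (median 0.26), against 1 and 4 of 13 core subunits (median -0.02). In complex I the core had 0 rises and 3 falls of 7, and the accessory subunits 18 rises and 0 falls of 29. Complexes III, IV and V had 6 of 9, 10 of 14 and 14 of 19 members higher and 0 lower by the edgeR test. At an unadjusted p under 0.05 these counts of 0 were unchanged. With the summed mitochondrial counts as library size 7 of the 91 were called higher and 0 lower by the edgeR test, with a median of 0.32 against 0.12 over all genes.

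Among the 6 that fell were NDUFV2 (-0.33 ± 0.06), NDUFS1 (-0.21 ± 0.05), NDUFAF2 (-0.28 ± 0.07), NDUFAF4 (-0.27 ± 0.07) and SDHA. SDHA stood at 55.8 and 58.8 scaled cRPKM with active photolyase, against 71.7 and 67.8 in control (-0.28 ± 0.05, edgeR adjusted p = 0.000344). SDHD stood at 109 and 101 with active photolyase, against 92.8 and 87.5 in control (0.22 ± 0.05, 0.00252). The flavoprotein and the anchor of complex II thus lay on opposite sides of control, with no overlap for either. SDHB, SDHC, CYC1, UQCRC2, UQCRFS1, NDUFV1, COX5A, ATP5F1A, ATP5F1B and ATP5F1C were all within 0.07 of 0 and not called.

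CYCS rose most outside complex I, at 213 and 202 scaled cRPKM with active photolyase, against 137 and 135 in control (0.61 ± 0.05, edgeR adjusted p = 4.19e-07). NDUFA2 (0.62 ± 0.07), COX7B (0.52 ± 0.06) and ATP5MJ (0.52 ± 0.06) had the largest rises of their complexes among genes of at least 5 cRPKM. NDUFAF8 rose by 0.34 ± 0.10, but without control replicate 2 it was not called (0.21, adjusted p = 0.0705). UQCRC1 rose by 0.13 ± 0.05, a call lost without any of the libraries except control replicate 1 (0.07 without control replicate 2, and 0.12 to 0.14 otherwise). COX4I1 (0.23), COX5B (0.26) and ATP5IF1 (0.35) rose.

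Set against each other within a library, the mitochondrial side was lower after UVC than in control, while for active photolyase the order depended on how the genes were summed. Summed cRPKM of the 13 mitochondrial over the 97 nuclear genes was 6.61 and 5.23 with active photolyase, 5.76 and 6.06 after UVC, and 6.64 and 8.26 in control. The mean log2 ratio was 2.56 ± 0.24 with active photolyase, 2.56 ± 0.05 after UVC and 2.89 ± 0.22 in control (SD, n = 2 each). By this sum all 4 irradiated libraries were below both control libraries, the higher active-photolyase library only just. With summed read counts the ratios were 5.30 and 4.19 with active photolyase and 5.10 and 6.50 in control, and without MT-ND6, MT-ND4L and MT-ATP8 they were 5.92 and 4.69 with active photolyase and 5.88 and 7.24 in control, so that these groups overlapped (exact two-sided permutation p = 0.667 for both). The UVC libraries were below both control libraries by each of these sums. The log2 differences were -0.33 for UVC minus control, -0.33 for active photolyase minus control and -0.01 for active photolyase minus UVC. An exact two-sided permutation test gave p = 0.333, 0.333 and 1 for them, the first 2 being the smallest value that groups of 2 allow.

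**Figure D4:**
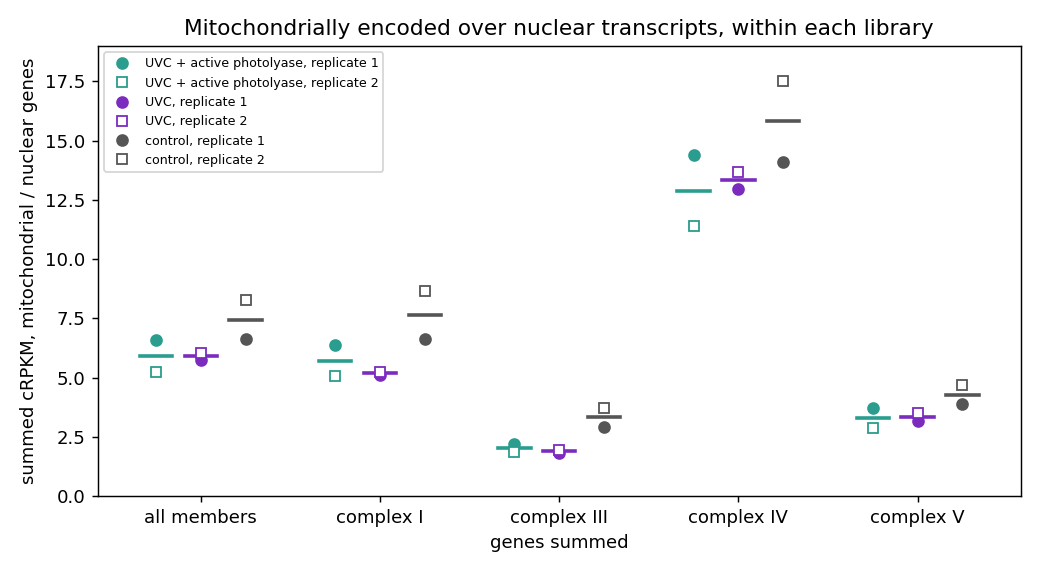
Ratio of summed cRPKM of mitochondrially encoded to nuclear genes in each library, for all members and for the structural subunits of each mixed complex. Circles are replicate 1, squares replicate 2 and bars means, in the order active photolyase, UVC, control. All complexes show lower values in UVC than in control libraries, and in complex IV the active-photolyase and control libraries overlap.

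The difference between UVC and control was greatest on the log2 scale for complex III, where 1 gene, MT-CYB, makes up the mitochondrial side. Complex III gave ratios of 2.21 and 1.85 with active photolyase, 1.82 and 1.96 after UVC, and 2.94 and 3.74 in control (-0.81 for UVC minus control). Complex I gave 6.38 and 5.07 with active photolyase, 5.13 and 5.25 after UVC, and 6.65 and 8.64 in control (-0.55). Complex V (-0.35) and complex IV (-0.24) differed less. For complex IV the ratios were 14.4 and 11.4 with active photolyase, 12.98 and 13.7 after UVC, and 14.1 and 17.5 in control. In all 4 complexes both UVC libraries were below both control libraries, and the active-photolyase libraries overlapped with control only in complex IV.

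Genes that make or process mitochondrial RNA changed in both directions. The shares of all tested genes called higher and lower, against which the counts of these lists stand, were 42.5 and 43.1% between UVC and control, 39.2 and 39.9% between active photolyase and UVC, and 33.0 and 32.9% between active photolyase and control. Of 15 tested genes for transcription and maintenance of mitochondrial DNA, 4 rose and 9 fell between UVC and control (median -0.39). Between active photolyase and UVC 10 rose and 4 fell (0.30), and between active photolyase and control 6 rose and 4 fell (-0.01), which is near the background. TFB2M, which opens the mitochondrial promoter, averaged 15.8 ± 0.3 scaled cRPKM with active photolyase, 4.03 ± 0.24 after UVC and 15.6 ± 0.6 in control (SD, n = 2 each). Its log2 fold change was -1.96 ± 0.07 for UVC against control (edgeR adjusted p = 9.93e-12) and 0.02 ± 0.06 for active photolyase against control (0.809). POLRMT, the polymerase itself, averaged 6.25 ± 0.28 with active photolyase, 9.80 ± 0.87 after UVC and 4.78 ± 0.16 in control. It rose by 1.03 ± 0.07 between UVC and control. TFAM, the promoter-bending and packaging factor, named after its values were seen, was at -0.71 ± 0.06 for UVC against control and -0.01 ± 0.05 for active photolyase against control.

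Of 20 tested genes for mitochondrial RNA processing, stability and decay, 5 rose and 10 fell between UVC and control (median -0.33), 12 rose and 4 fell between active photolyase and UVC (0.24), and 6 rose and 5 fell between active photolyase and control (0.06, with 3 falls without active-photolyase replicate 1). The 10 of 20 that fell between UVC and control lay close to the background, and the shares called against control did not exceed it. With library totals the split between UVC and control was even in both lists, at 7 rises and 7 falls for transcription and maintenance and 8 and 8 for processing. MTPAP, the mitochondrial poly(A) polymerase, averaged 15.5 ± 0.3 scaled cRPKM with active photolyase, 6.15 ± 0.16 after UVC and 15.5 ± 0.4 in control. TRMT10C, a subunit of mitochondrial RNase P, averaged 74.1 ± 2.1 with active photolyase, 31.8 ± 0.9 after UVC and 48.5 ± 1.1 in control. LRPPRC, which stabilises mitochondrial mRNAs, averaged 23.2 ± 0.4 with active photolyase, 20.3 ± 0.1 after UVC and 34.5 ± 0.3 in control. MTPAP was thus low only after UVC, TRMT10C was highest with active photolyase, and LRPPRC was below control in both irradiated groups. Among the called genes of smallest p, FASTK rose after UVC (0.63 ± 0.05), and FASTKD5 rose with active photolyase against control (0.81 ± 0.05).

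The listed regulators of nuclear respiratory genes, transcription factors and coactivators, were mostly lower after UVC. Of 9 tested regulators, 7 fell and 1, TFEB (0.33 ± 0.09), rose between UVC and control (median -1.09), so that 77.8% were lower against 43.1% of all tested genes. With active photolyase against UVC 7 rose and 2 fell (0.90), and against control 5 fell and 0 rose (-0.17), or 3 and 0 without active-photolyase replicate 2. With library totals 6 fell and 3 rose between UVC and control. GABPB1, the activating partner of GABPA, averaged 17.5 ± 0.3 scaled cRPKM with active photolyase, 4.39 ± 0.09 after UVC and 30.2 ± 1.1 in control, a change of -2.78 ± 0.06 for UVC against control (edgeR adjusted p = 5.02e-14). NRF1, named after its values were seen, averaged 2.12 ± 0.03 with active photolyase, 0.927 ± 0.029 after UVC and 4.72 ± 0.20 in control. These are mRNA levels, and protein was not measured.

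Assembly factors outside the symbol rule mostly rose after UVC, with 28 rises and 9 falls of 41 between UVC and control (median 0.41), 9 and 25 between active photolyase and UVC (-0.28), and 18 and 3 between active photolyase and control (0.14). The shares called higher were 68.3% between UVC and control against 42.5% over all genes, and 43.9% between active photolyase and control against 33.0%. COA7, a complex IV assembly factor, went against them, averaging 21.1 ± 0.4 scaled cRPKM with active photolyase, 7.08 ± 0.29 after UVC and 19.3 ± 0.6 in control. Among the called genes of smallest p, COA3 rose (0.89 ± 0.06) between UVC and control, UQCC1 fell (-0.74 ± 0.06) between active photolyase and UVC, and TTC19 fell (-0.82 ± 0.05) and TMEM70 rose (0.31 ± 0.05) between active photolyase and control. Of 14 genes of the tricarboxylic acid cycle, which supplies the electrons, 6 rose and 3 fell between UVC and control (median 0.09), 3 rose and 11 fell between active photolyase and UVC (-0.25), and 1 rose and 7 fell between active photolyase and control (-0.13). The share that rose between UVC and control, 42.9%, was that of all tested genes (42.5%), while 78.6% fell between active photolyase and UVC against 39.9% of all. Without active-photolyase replicate 1 the falls numbered 7 against UVC and 3 against control, without control replicate 1 there were 2 rises against control, and with library totals 11 rose and 3 fell between UVC and control. OGDH averaged 87.1 ± 1.4 with active photolyase, 44.2 ± 1.2 after UVC and 110 ± 4 in control.

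Promoter sequence from RefSeq (GRCh38.p14, 250 bases before to 50 after the start) was at hand for 77 of the 97 nuclear members. On either strand, the NRF1 motif (GCGCA, any base, GCGC) was found in 23.4% of them, the GABPA motif CCGGAAG in 27.3%, the YY1 motif AAGATGGCG in 9.09% and any of the 3 in 50.6%. Over the 9457 tested genes with a promoter the shares were 11.7, 19.7, 4.15 and 31.5%, and over all 27305 promoters listed they were 6.28, 10.7, 1.85 and 17.0%. Median change between UVC and control was 0.44 for the 38 tested members with any motif and 0.46 for the 36 without. No match says only that these letters are not in this window.

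The 6 stretches of 120 bases printed here show motif-bearing promoters of members that rose after UVC (SDHD, UQCR11 and COX5B), were not called (SDHA and NDUFS1) or fell (NDUFAF4). They run 5′ to 3′ on the gene's strand, with motif matches in capitals (those of NRF1 or GABPA, or the reverse complement). In the order printed they lie at chr11:112086753-112086872 on the plus strand, chr19:1605463-1605582 on the minus strand, chr2:97645942-97646061 on the plus strand, chr5:218144-218263 on the plus strand, chr2:206159492-206159611 on the minus strand and chr6:96897929-96898048 on the minus strand of GRCh38.p14.
SDHD: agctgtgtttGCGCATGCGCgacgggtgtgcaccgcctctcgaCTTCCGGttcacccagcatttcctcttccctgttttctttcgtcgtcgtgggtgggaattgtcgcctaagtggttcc
UQCR11: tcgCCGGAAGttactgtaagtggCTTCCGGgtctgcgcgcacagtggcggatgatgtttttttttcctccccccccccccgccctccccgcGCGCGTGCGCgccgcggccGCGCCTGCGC
COX5B: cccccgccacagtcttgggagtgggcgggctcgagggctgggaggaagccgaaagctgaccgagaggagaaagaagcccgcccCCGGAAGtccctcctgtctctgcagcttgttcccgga
SDHA: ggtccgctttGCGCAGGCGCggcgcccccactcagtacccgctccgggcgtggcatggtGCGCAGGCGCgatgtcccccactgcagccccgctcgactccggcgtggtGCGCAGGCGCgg
NDUFS1: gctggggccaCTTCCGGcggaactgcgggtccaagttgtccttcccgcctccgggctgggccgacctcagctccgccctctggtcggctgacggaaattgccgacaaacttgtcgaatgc
NDUFAF4: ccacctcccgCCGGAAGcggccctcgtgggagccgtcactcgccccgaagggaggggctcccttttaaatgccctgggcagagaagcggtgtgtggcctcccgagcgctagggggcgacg

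SDHD and SDHA both hold NRF1 matches, and NDUFAF4 and COX5B both hold a GABPA match, with the changes given above. Whether the motifs play a part in these changes was not tested. UQCR11, a small subunit of complex III with matches to both motifs, stood at 47.8 and 47.9 scaled cRPKM after UVC, against 34.6 and 32.3 in control (0.52 ± 0.05, edgeR adjusted p = 6.56e-07).

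Nuclear members lie in short genes, counting introns. The 91 tested members had a median span of 12.5 kb, against 30.2 kb for the 11728 tested genes with a span. Across genes, Spearman's rho between span and change was -0.545 over the members and -0.243 over all tested genes for UVC against control. For active photolyase against control it was -0.475 and -0.438, and for active photolyase against UVC 0.168 and 0.0247. The members' effective length, as used for cRPKM, was also short, with a median of 909 bases against 2596 over all tested genes. Its rho with the change was -0.337 over the members and -0.267 over all tested genes for UVC against control. For active photolyase against control it was -0.379 and -0.317, and for active photolyase against UVC 0.051 and 0.137. Genes are not independent replicates, and these values are descriptions. Whether either length plays a part was not tested.

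**Figure D5:**
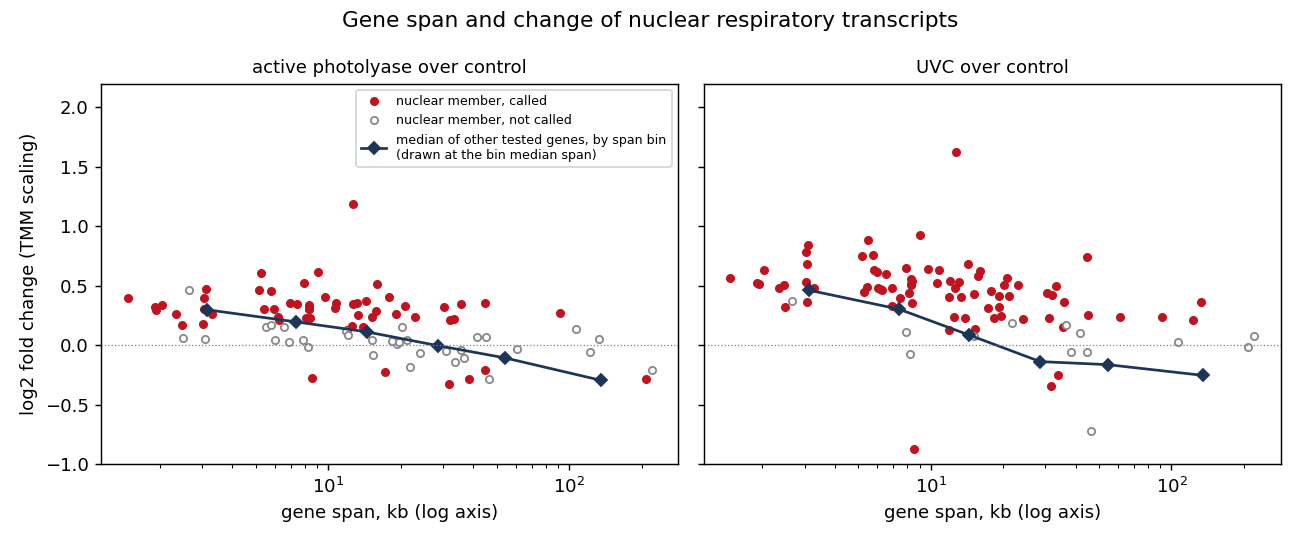
Log2 fold change (TMM scaling) of the 91 nuclear members against gene span (log axis), for active photolyase over control at left and UVC over control at right. Diamonds are medians of the other tested genes in 6 span bins, drawn at the bin's median span. Short genes lie higher in both panels, and for UVC over control most members between 10 and 40 kb lie above the diamonds.

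In each span bin the members' median lay above that of other genes between UVC and control, by least in the shortest. Under 5 kb the median was 0.52 for 14 members and 0.46 for other genes. From 10 to 20 kb it was 0.41 for 23 members and 0.09 for other genes, and from 20 to 40 kb 0.30 for 16 members and -0.14 for other genes. For active photolyase against control the medians were close up to 5 kb (0.30 for both) and from 20 to 40 kb (0.00 for both). The members were higher in the other bins, at 0.30 against 0.20 from 5 to 10 kb and 0.24 against 0.11 from 10 to 20 kb. From 40 to 80 kb they were at 0.02 against -0.11, and at 80 kb or more at 0.00 against -0.29. For active photolyase against UVC the members were lower than other genes in each bin, for example -0.25 against 0.08 from 20 to 40 kb. The 2 longest bins held 6 members each.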

How the data were processed

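Gene expression was measured by RNA sequencing of 6 libraries, 2 per group. The libraries were made with a TruSeq kit, per the labels' protocols, and aligned with Bowtie to hg19, per the submitters' processing notes. For the counting rule and its use of strand, the sources used here give nothing. The authors deposited a whole read count and a cRPKM (an RPKM corrected for effective length) for 19847 genes per library, of which 354 had no value. Symbols were found for 18913 genes through Ensembl identifiers. For all 13 mitochondrial genes the effective length was the gene length minus 49 bases.

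Counts were fitted in edgeR 4.0.16 (R 4.3.3) with quasi-likelihood F tests on 3 group means over all 6 libraries, TMM factors and a filter of 1 cRPKM in at least 2 libraries, which left 11926 genes, and p-values were adjusted over all of them (threshold 0.05). Standard errors are the fold change over the square root of F. The procedure was tested on simulated data. Total counts ranged from 57669389 to 70005705. Replicates differed by more than sampling noise (chi-square per degree of freedom 15.0 with active photolyase, 5.59 after UVC and 24.2 in control), so no library was merged. Alternatives used DESeq2 1.42.0, limma 3.58.1 on log2(cRPKM + 0.1, 1 or 2), other scalings and filters, a replicate block and left-out libraries. Gene spans come from GENCODE on GRCh38 and promoters from RefSeq, and were joined by gene and not by position.

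Named genes were the 13 mitochondrial genes, 20 fixed nuclear ones, paired isoforms, for each comparison and complex the largest called rise and fall among genes of at least 5 cRPKM, and per other list the called gene of smallest p in each direction, and 1 gene that this rule names is not reported here. The members and lists were chosen with earlier results of these data known. Reads from mitochondrial genes can also match nuclear copies of mitochondrial DNA, and those from nuclear members can match processed pseudogenes.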

Additional observations from a re-analysis of the deposited data

How the results depend on the processing

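The rise of nuclear members after UVC, their fall with active photolyase against UVC and their rise against control stayed within 1.5 times the reported counts (75, 68 and 52) under every alternative except scaling to the mitochondrial pool, chosen after seeing the data. There the nuclear calls were 17 higher and 1 lower between UVC and control, 1 and 1 between active photolyase and UVC, and 7 and 0 between active photolyase and control, the mitochondrial calls 0 and 2, 0 and 0, and 0 and 0, and all calls 7059, 4785 and 2560. Counts of mitochondrial calls did not. Between UVC and control they were 9 higher and 0 lower with library totals, 7 and 0 with limma as deposited (pseudocounts 0.1, 1 and 2), 5 and 0 with limma median-centred and 1 and 2 with DESeq2, and 7 fell with no filter. Between active photolyase and UVC 13 fell with library totals and with limma as deposited, 9 with limma median-centred, 8 with only the 4 libraries compared, 7 with the filter at 5 cRPKM, 1 with DESeq2 and 0 with no filter, which also gave 1 rise. Between active photolyase and control 1 rose and 2 fell with library totals, 2 fell with limma (median-centred too) and 3 with DESeq2. Nuclear members lower between UVC and control numbered 1 with library totals and each limma fit and 6 with no filter, those lower between active photolyase and control 2 with library totals and 3 with limma as deposited, and those higher between active photolyase and UVC 1 with library totals, the filter at 5 cRPKM and each limma fit. Over all 11926 tested genes, library totals gave 7091 higher and 3546 lower calls between UVC and control. Limma at pseudocount 1 gave 7084 and 3519, and median-centred 6416 and 4024. Between active photolyase and UVC these 3 fits gave 3324 and 6939, 3309 and 6980, and 3700 and 6354. Between active photolyase and control they gave 5228 and 2848, 5114 and 2752, and 4486 and 3173. The cause of the moved member counts was not tested. Library totals and the limma fits moved the median change of all genes between UVC and control, while DESeq2 left it at -0.0005 and the fit with no filter at 0.05.

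Leaving out each library gave 0 to 3 mitochondrial rises and 3 to 7 falls between UVC and control, 0 to 11 falls between active photolyase and UVC, and 0 to 2 rises and 1 to 10 falls between active photolyase and control, with 1 to 2 nuclear rises between active photolyase and UVC. The mitochondrial over nuclear log2 ratio ranged from -0.48 to -0.17 for UVC minus control, from -0.50 to -0.17 for active photolyase minus control and from -0.18 to 0.16 for active photolyase minus UVC, where 0.16 came without active-photolyase replicate 2, 0.03 without UVC replicate 2 and 0.0147 with genes weighted equally.

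Single values turned sign as follows, library totals first and then limma with pseudocounts 0.1, 1 and 2. Between UVC and control these were MT-ATP8 (0.30, 0.30, 0.30, 0.30), MT-ND3 (0.0872, 0.0867, 0.0867, 0.0867), MT-ND4 (0.41, 0.42, 0.42, 0.42), MT-ND6 (0.14, 0.15, 0.15, 0.15), NDUFS1 (0.36, 0.36, 0.34, 0.32), NDUFV2 (0.0691, 0.0695, 0.0681, 0.0666), SDHA (0.36, 0.36, 0.35, 0.35) and UQCRFS1 (0.34, 0.34, 0.34, 0.34). MT-ND2 (0.22) and MT-ND4L (0.26) turned with library totals, and MT-ND5 with limma (0.0048 for each pseudocount). Between active photolyase and UVC they were CYCS (-0.15, -0.15, -0.15, -0.15), MT-ND2 (-0.27, -0.28, -0.28, -0.28), MT-ND3 (-0.20, -0.20, -0.20, -0.20), NDUFV2 (-0.29, -0.29, -0.28, -0.27) and UQCRFS1 (-0.25, -0.25, -0.24, -0.24). With limma median-centred, MT-ND6 was at 0.0195, NDUFS1 at 0.21, SDHA at 0.23 and UQCRFS1 at 0.21 between UVC and control, and CYCS was at -0.0621, NDUFV2 at -0.19 and UQCRFS1 at -0.16 between active photolyase and UVC. Scaled to the mitochondrial pool, MT-ND1 was at 0.0142 between active photolyase and UVC.

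The labels number replicates alike in each group, but same-numbered libraries did not deviate together (correlations -0.0201, 0.179 and 0.0468), so the numbers were not taken as pairs. With a replicate block the calls were 5086 higher and 5152 lower between UVC and control, 4690 and 4790 between active photolyase and UVC, and 3981 and 3956 between active photolyase and control, and MT-CO1 missed the threshold between active photolyase and UVC (adjusted p = 0.0519). With 2 libraries a group, differences in the size of the mitochondrial pool of the order seen between the active-photolyase replicates (4.09 and 3.21% of counts) cannot be resolved, and low members such as NDUFA11, COX6A1 and ATP5MF-PTCD1 are limited by their few reads.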
